A study of Mus musculus with 352 samples.

Results

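Tibialis anterior muscle of 26-week-old mice in which the clock gene Bmal1 works in brain and muscle (RE-RE) was compared with that of mice in which it works in brain alone (Br-RE). The members were all libraries that the table of expression values carries under these 2 groups at 26 weeks with feeding ad libitum: 46 of its 352 libraries, 24 of RE-RE and 22 of Br-RE, each from 1 mouse. Every mouse of both groups was C57BL/6 and homozygous for Bmal1(stopFL/stopFL), an allele whose stop cassette blocks Bmal1 until Cre recombinase removes it. Every mouse of both groups also carried Syt10-Cre(-/tg), which restores Bmal1 in the brain, and RE-RE mice carried in addition Hsa-Cre(-/tg), driven by a skeletal actin promoter, which restores it in skeletal muscle fibres. The Cre drivers limit the model: Hsa-Cre is known to act in skeletal muscle fibres, so the vessel, connective tissue and immune cells in the same samples are not its targets. Muscles were taken every 4 h over 24 h, counted in zeitgeber time (ZT). There were 4 RE-RE mice per time point, and 4, 3, 4, 4, 4 and 3 Br-RE mice at ZT 0, 4, 8, 12, 16 and 20. RE-RE held 13 females and 11 males and Br-RE 12 females and 10 males. The same 2 genotypes at 10 to 12 weeks, also fed ad libitum, with 24 RE-RE and 23 Br-RE mice, serve below as the comparison in age. Rhythms of 3 further groups at 26 weeks, fed ad libitum, are cited once. They were wild-type mice (11 females, 11 males), Bmal1(stopFL/stopFL) mice with Cre(-/-) (KO, 13 females, 11 males) and Bmal1(stopFL/stopFL) mice with Hsa-Cre(-/tg) alone (Mu-RE, 11 females, 13 males).

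The molecular clock is a feedback loop. BMAL1, the protein of Bmal1 (listed under its symbol Arntl), pairs with CLOCK and binds E-boxes in the DNA of its target genes, among them the Per and Cry genes, whose proteins inhibit the pair, Nr1d1 and Nr1d2, whose REV-ERB proteins repress Arntl, and Dbp. DBP and its relative TEF activate genes through D-boxes, and NFIL3 opposes them there. In skeletal muscle the clock is known to act on fuel use, above all on glucose uptake and oxidation, while light, feeding and circulating hormones bring further daily signals from outside the fibre.

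The binding sequences of the loop are shown in some of the genes whose 24 h mean levels or rhythms differed between the groups. The windows are from RefSeq on GRCm38.p6 and hold the 250 bases before the annotated start, or, for Arntl, 30 bases around a match after it, printed 5′ to 3′ on the gene's strand. Capitals mark a match to CACGTG (E-box), to TTATGNAA (D-box) or to TAGGTCA (the element that REV-ERB and ROR proteins bind), each searched on both strands. Per1 at chr11:69098699-69098948 (plus strand) held an E-box at base -166 from its start and a D-box at -24. Per3 at chr4:151044666-151044915 (minus strand) held D-boxes at -205 and -158. Nkain1 at chr4:130574037-130574286 (minus strand) held an E-box at -154. Arntl at chr7:113207531-113207560 (plus strand) held a REV-ERB and ROR element at +30. Mylk4 at chr13:32783965-32784214 (minus strand), the gene with the largest increase among those with a RefSeq window, held none of these letters. The other 4 windows were chosen after the values had been seen, and each is one that holds a match. Per1 and Arntl have 2 windows each, of which the one with a match is shown. The windows of Dbp, Nr1d1 and Nr1d2, which also differed between the groups, held none of these letters and are not printed.
Per1: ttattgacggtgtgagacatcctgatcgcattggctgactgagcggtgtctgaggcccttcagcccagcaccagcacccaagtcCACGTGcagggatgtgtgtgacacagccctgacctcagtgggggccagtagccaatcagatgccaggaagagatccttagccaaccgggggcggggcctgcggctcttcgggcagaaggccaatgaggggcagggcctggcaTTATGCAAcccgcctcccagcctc
Per3: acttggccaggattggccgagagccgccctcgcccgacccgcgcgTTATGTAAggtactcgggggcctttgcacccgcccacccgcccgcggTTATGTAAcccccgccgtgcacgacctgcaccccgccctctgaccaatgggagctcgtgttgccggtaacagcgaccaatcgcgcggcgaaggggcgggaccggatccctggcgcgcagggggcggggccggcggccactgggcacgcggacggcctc
Nkain1: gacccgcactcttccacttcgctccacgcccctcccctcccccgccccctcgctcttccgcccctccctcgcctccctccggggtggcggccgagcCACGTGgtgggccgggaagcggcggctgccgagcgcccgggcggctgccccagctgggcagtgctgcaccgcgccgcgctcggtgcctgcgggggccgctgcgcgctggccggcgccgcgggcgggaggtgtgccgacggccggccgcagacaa
Arntl: aggcagaaagTAGGTCAgggacggaggtgc
Mylk4: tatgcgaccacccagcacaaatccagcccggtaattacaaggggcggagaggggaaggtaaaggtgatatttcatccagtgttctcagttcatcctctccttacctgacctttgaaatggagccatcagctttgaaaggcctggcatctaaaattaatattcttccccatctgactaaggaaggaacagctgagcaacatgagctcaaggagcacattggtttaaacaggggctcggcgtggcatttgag

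The values are log2 FPKM, that is fragment counts scaled by exon length and library total, and 1 unit of difference is a doubling. The read depths recovered from the values ran from 18.4 M to 30.4 M reads (median 22.2 M) in RE-RE and from 20.0 M to 33.3 M reads (median 24.8 M) in Br-RE. Libraries correlated with the others of their group with a median r of at least 0.942, and no pair looked like a repeat deposit. After the values had been seen, 3 libraries were taken as standing apart, Br-RE replicate 3 and RE-RE replicates 1 and 19. Their median r was 0.948, 0.942 and 0.949, and RE-RE replicate 16, at 0.949, was not among them. Counts without these 3 are given where they matter. In the deposited table each gene has the same mean in females and males of these 46 libraries, and the same mean here as in the other 140 libraries of this age (within 1e-05). Sexes and levels in other groups or ages are therefore not compared, while differences within the 46 libraries keep their meaning. Genes that mark skeletal muscle fibres were abundant in both groups, with 10 markers summing to 46100 to 84000 FPKM in RE-RE and 51800 to 71200 in Br-RE. A bulk muscle sample cannot tell fewer cells of a type from less RNA per cell.

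Adding Bmal1 in muscle to Bmal1 in brain was accompanied by different 24 h mean levels of many genes. Of 9862 genes with a mean of at least 1 FPKM, 1623 were higher in RE-RE (16.5%) and 1859 were lower (18.9%) at an adjusted p of 0.05 (limma, two-sided, Benjamini-Hochberg adjustment). Most differences were small: 290 of the higher and 286 of the lower genes reached 1.5-fold, and 105 and 95 reached 2-fold. The median over all genes tested was -0.01, the median absolute difference was 0.13, and among called genes it was 0.30. In 48 genes (0.487%) all 24 RE-RE libraries lay above all 22 Br-RE libraries, and in 24 genes (0.243%) all lay below.

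The core clock loop is the first place where the groups parted. Of its 13 genes tested, 8 were higher (61.5%) and 3 lower (23.1%) in RE-RE, beside 16.5% and 18.9% over all genes. The median difference was 0.71 against -0.01 over all genes (Npas2 and Ciart were below the filter). Arntl itself (chromosome 7, 113207465 to 113314126, plus strand, GRCm38) ranged from 1.12 to 3.94 log2 FPKM in RE-RE with a median of 2.98, and from 2.98 to 3.94 in Br-RE with a median of 3.36. It was lower by 24 h mean in RE-RE, with a difference of -0.67 ± 0.09 (SE). Br-RE muscle thus held reads of Arntl at a higher level than RE-RE muscle, so its level does not check the labels. Its rhythm differed, with means at ZT 0, 4, 8, 12, 16 and 20 of 3.42, 2.99, 1.98, 1.39, 3.06 and 3.35 in RE-RE and 3.34, 3.55, 3.50, 3.23, 3.22 and 3.42 in Br-RE. The fitted amplitude, taken from the mean to the peak of a 24 h cosine, was 0.996 ± 0.10 in RE-RE with its peak at ZT 22.4 (adjusted p = 1.1e-05) and 0.14 ± 0.06 in Br-RE (adjusted p = 0.354). In RE-RE, Arntl thus fell to a trough at ZT 12 that no Br-RE time point showed.

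Among the partners of Arntl, Clock, whose protein forms the DNA-binding pair with BMAL1, was lower in RE-RE by 24 h mean, with a difference of -1.02 ± 0.07. Cry1, a repressor of that pair, was also lower, at -0.49 ± 0.05, and its relative Cry2 was not called, at 0.19 (adjusted p = 0.102). The Per and REV-ERB genes, in contrast, were higher. Per3 ranged from 0.76 to 2.98 log2 FPKM in RE-RE (median 2.02) and from -2.62 to -0.08 in Br-RE (median -1.04), a difference of 3.18 ± 0.11 with no overlap. Per2 differed by 1.36 ± 0.15 and Per1 by 0.75 ± 0.20. Of the REV-ERB genes, Nr1d2 and Nr1d1 were higher by 2.01 ± 0.08 and 1.57 ± 0.17. Nr1d2 ranged from 3.98 to 5.68 in RE-RE (median 4.71) and from 2.23 to 3.45 in Br-RE (median 2.77), again without overlap, whereas the range of Nr1d1 in RE-RE, 0.93 to 5.46, spanned that of Br-RE, 1.46 to 3.28. Bhlhe40, Rora and Bhlhe41, which code for further repressors and activators of the loop, differed by 1.30, 0.71 and 0.39.

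Of the 8 clock output factors tested, 4 were higher (50%) and 1 lower (12.5%), beside 16.5% and 18.9% over all genes. Their median was 0.21 (Hlf and Wee1 were below the filter). Dbp (chromosome 7, 45705088 to 45710203) ranged from 1.47 to 5.06 log2 FPKM in RE-RE (median 3.33) and from 0.23 to 1.19 in Br-RE (median 0.81). Its difference was 2.74 ± 0.13, and the groups did not overlap. Tef, its relative, was higher by 0.99 ± 0.05 with no overlap, while Nfil3, their opponent at D-boxes, was lower, at -1.36 ± 0.13. The activators of D-box genes were therefore higher and their repressor lower. Usp2, a deubiquitinase gene, and Tspan4, a tetraspanin gene, differed by 0.59 and 0.31, and Por, Klf9 and Klf15 were not called. Dbp shares its locus with Sphk2, Nr1d1 with Thra and Tspan4 with Chid1 on the other strand, and reads of such pairs may not be separable (whether counting used strand: not given in the sources used here).

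**Figure D1:**
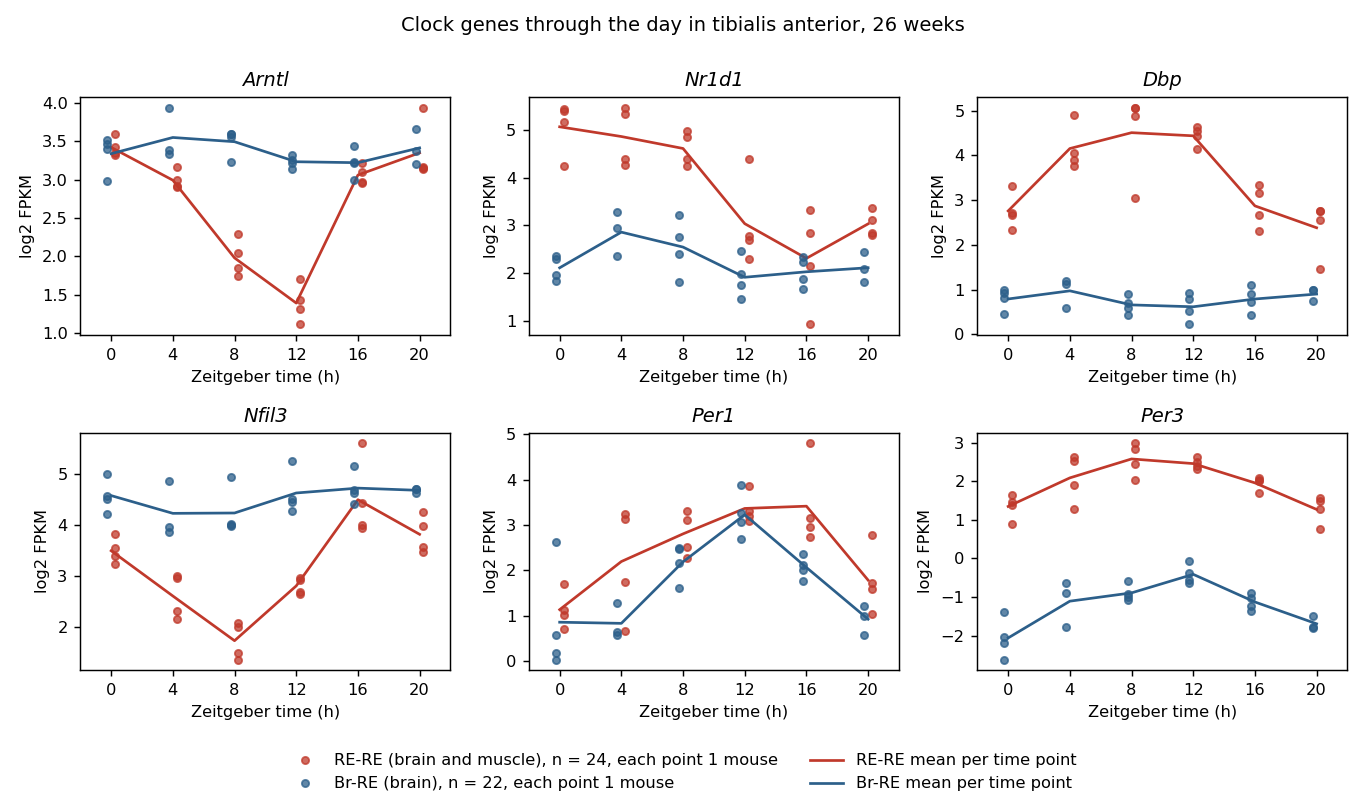
Log2 FPKM of 6 clock genes (y axis) against zeitgeber time in h (x axis) at 26 weeks; points are single mice and lines join the means per time point of RE-RE and Br-RE. Arntl, Dbp and Nr1d1 swing over the day in RE-RE and little in Br-RE, while Per1 and Per3 peak in both groups, Per3 around separate levels.

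The rhythms of the clock genes did not all follow Arntl. Dbp had an amplitude of 1.21 ± 0.15 with its peak at ZT 8.4 in RE-RE and of 0.12 ± 0.08 in Br-RE. Its difference in rhythm was called (adjusted p = 0.000191), as was that of Arntl (2.37e-05). Nr1d1 had amplitudes of 1.48 ± 0.18 (peak at ZT 3.6) and 0.38 ± 0.12, and Nfil3 of 1.18 ± 0.15 (ZT 18.9) and 0.27 ± 0.11. Both were called rhythmic in RE-RE alone, but the tests of the difference gave adjusted p of 0.0904 and 0.0683. With the 3 libraries that stand apart left out, Nfil3 passed (0.0165). Per1, in contrast, swung as widely in Br-RE as in RE-RE, with amplitudes of 1.19 ± 0.18 (ZT 11.9) and 1.13 ± 0.21 (ZT 12.2) and an adjusted p for the difference of 0.977. Per3 had amplitudes of 0.73 ± 0.11 (ZT 10.8) in Br-RE and 0.71 ± 0.10 (ZT 9.6) in RE-RE. The call of Per3 in Br-RE was lost under quantile normalization (adjusted p = 0.124). Per2 was called in RE-RE (0.93, ZT 11.8) and not in Br-RE (0.64, adjusted p = 0.0663), and its difference in rhythm was not called (adjusted p = 0.497).

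Other groups of the same age, also fed ad libitum, show where these rhythms stand, as values without a test between groups. In wild-type mice Arntl had an amplitude of 1.08, Dbp of 1.41, Per1 of 1.47 and Per3 of 0.70, and each was called rhythmic. Where Bmal1 was blocked everywhere (KO), the amplitudes of Arntl, Dbp, Per1 and Per3 were 0.08, 0.18, 0.32 and 0.06, and none was called. Where it was restored in muscle alone (Mu-RE), they were 0.10, 0.17, 0.24 and 0.04, and none was called either. In the same order RE-RE had 0.996, 1.21, 1.13 and 0.71, all called, and Br-RE 0.14, 0.12, 1.19 and 0.73, of which Per1 and Per3 were called.

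Across all genes, the daily rhythm differed between the groups in few. A difference in rhythm was called in 9 genes (0.0913%), with 1049 at an unadjusted p under 0.05. Besides Arntl and Dbp these included Coq10b, which serves coenzyme Q function in the respiratory chain (amplitude 0.69 with its peak at ZT 8.9 in RE-RE against 0.24 in Br-RE), and Acat2, an acetyl-CoA thiolase (0.58 at ZT 12.6 against 0.16). Miga2, a mitochondrial fusion factor, had 0.59 (ZT 22.6) against 0.05. Cldn12, a claudin, had 0.28 against 0.05, and Plcd4, a phospholipase C, 0.30 (ZT 7.6) against 0.29 (ZT 19.2). The calls of Cldn12, Plcd4 and Miga2 were lost with ZT as 6 levels in place of a cosine (adjusted p = 0.288, 0.381 and 0.0929). With 1 mouse left out, Plcd4 lost its call in 12 of 46 fits, and Cldn12 without Br-RE replicate 3 or 4 or RE-RE replicate 15. The number of calls was 16 without RE-RE replicate 14 and 14 without replicate 6 or 22.

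Within RE-RE, 75 genes were called rhythmic (0.76%), with a median amplitude of 0.54. Their peaks gathered late in the cycle and in its middle, with 24 between ZT 20 and 24, 18 between ZT 12 and 16 and 12 between ZT 0 and 4. Those with the smallest p outside the clock were Rgs2, a regulator of G-protein signals (amplitude 1.13, ZT 21.6), Dusp7, a phosphatase of MAP kinases (0.79, ZT 12.7), and Ypel2 (0.67, ZT 22.4). Of the 75, 30 were also higher (40%) and 31 also lower (41.3%) in level, beside 16.5% and 18.9% over all genes. At 10 to 12 weeks 58 genes were called in this genotype, and 26 were called at both ages, 34.7% of the 26-week list and 44.8% of the younger one. Without RE-RE replicate 5 the count at 26 weeks was 136.

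Within Br-RE, 68 genes were called rhythmic (0.69%), with a median amplitude of 0.45, and 34 of their peaks fell between ZT 12 and 16 and 19 between ZT 8 and 12. Among them were 1 of 28 genes of fatty acid uptake and oxidation (Ucp3) and 1 of 16 of lipid storage and lipolysis (Lipe). Pdk4, a kinase that shuts pyruvate out of oxidation, had means at ZT 0, 4, 8, 12, 16 and 20 of 5.24, 7.83, 8.81, 7.70, 6.63 and 5.52 log2 FPKM. Its amplitude was 1.77 ± 0.26 (11.6-fold from trough to peak) with the peak at ZT 8.9. Ucp3, an uncoupling protein that rises with fatty acid supply, had 1.16 ± 0.20 (ZT 8.6), and Cpt1a, which admits fatty acids to mitochondria, 0.66 ± 0.12 (ZT 8.8). Lipe, hormone-sensitive lipase, had 0.39. These 4 genes were picked after their values were seen. The call of Lipe was lost without the 3 libraries that stand apart (adjusted p = 0.084), and that of Ucp3 with the slope of values on gene length as a covariate (0.0614). In RE-RE the means of Pdk4 were 6.89, 7.82, 7.15, 6.33, 7.72 and 6.25, with an amplitude of 0.29 ± 0.45 and an SD of 3.01 among the 4 mice at ZT 20. The difference in rhythm was not called for Pdk4 (adjusted p = 0.414) or Ucp3 (0.477). The genes with the smallest p were the potassium channel gene Kcna5 (0.83, ZT 12.5), Abhd14b (0.43), Dusp7 (0.73) and Sult1a1 (0.60). Of the 68, 39 were also called at 10 to 12 weeks (57.4%). At that age Br-RE had 2862 calls, 29% of all genes tested, and the 39 are 1.36% of them. Without Br-RE replicate 15 the count at 26 weeks was 43 and without replicate 20 it was 45.

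In both groups 8 genes were called rhythmic, namely Per1, Per3, Dusp7, Adh1, Mid1ip1, Mylk4, Sult1a1 and Wsb1, which is 10.7% of the RE-RE list and 11.8% of the Br-RE list. The median gap between the fitted peaks of the groups was 1.37 h and the largest 3.51 h, for Mid1ip1 (ZT 14.9 in RE-RE, ZT 18.5 in Br-RE). Without the 3 libraries that stand apart, Sult1a1 was no longer called in RE-RE (adjusted p = 0.108), nor Mylk4 (0.0514) and Wsb1 (0.0559) in Br-RE.

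**Figure D2:**
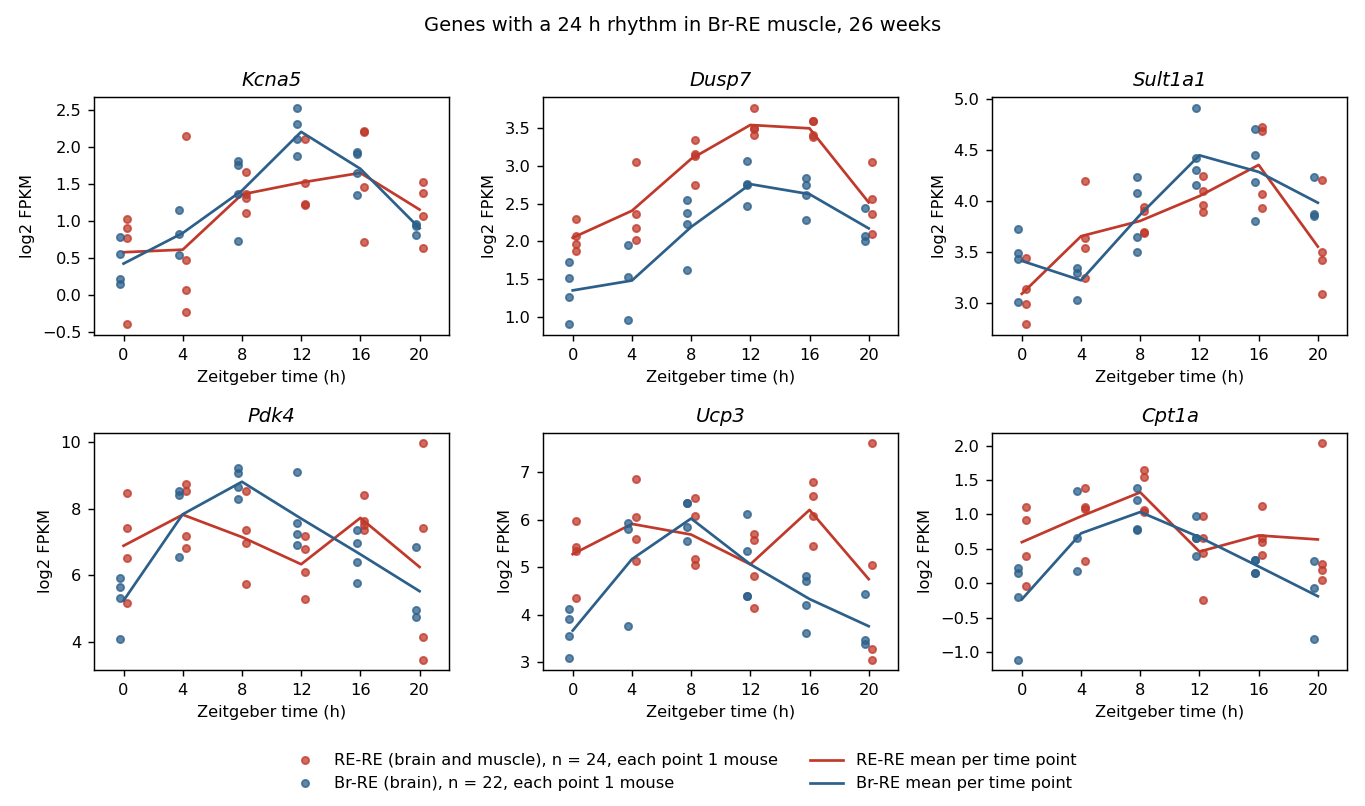
Log2 FPKM (y axis) against zeitgeber time in h (x axis) of 6 genes called rhythmic in Br-RE; points are single mice and lines join the means per time point. Kcna5, Dusp7 and Sult1a1 peak soon after ZT 12, and Pdk4, Ucp3 and Cpt1a near ZT 9, in Br-RE. Pdk4 at ZT 20 in RE-RE has an SD of 3.01.

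The largest differences in level lay outside the clock. Ces1d, a carboxylesterase that hydrolyses triglyceride (chromosome 8, 93166068 to 93197838), ranged from 3.69 to 5.97 log2 FPKM in RE-RE (median 5.13) and from -6.09 to 0.10 in Br-RE (median -2.20). The groups did not overlap, and the difference was 7.79 ± 0.29. Because Br-RE was close to 0, the size depends on the value added before the logarithm and was 4.97 with 1 FPKM added. Reads of Ces1d may be shared with its near copies in the Ces1 cluster. Mylk4, a myosin light chain kinase gene (chromosome 13, 32700834 to 32783954), ranged from 6.12 to 8.90 (median 7.92) against 1.61 to 5.83 (median 4.26), a difference of 3.74 ± 0.17. Car3, the carbonic anhydrase of slow fibres and fat cells, ranged from 9.66 to 11.3 (median 10.34) against 6.09 to 8.52 (median 7.13), a difference of 3.10 ± 0.15. In all 3 genes every RE-RE mouse lay above every Br-RE mouse.

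Col24a1, a collagen gene, differed by 3.48 ± 0.18, with 0.26 to 3.09 log2 FPKM in RE-RE (median 1.54) and -2.71 to -0.92 in Br-RE (median -1.95). Aebp1, a secreted carboxypeptidase-like protein of connective tissue, ranged from 3.15 to 5.09 (median 4.45) against 1.01 to 2.48 (median 1.94), and differed by 2.56 ± 0.11. Ifit3b, an interferon-induced gene with close copies, differed by 3.26 ± 0.19, and Ak4, an adenylate kinase of mitochondria, by 2.41 ± 0.13. Nkain1, whose E-box is printed above, differed by 2.39 ± 0.13. Each of these 5 genes was without overlap between the groups. Cntfr, the receptor of ciliary neurotrophic factor, differed by 2.83 ± 0.17 and overlapped. Further down, Aldh1a1 (1.98) and Maob (2.28), both oxidising enzymes, also separated the groups completely, as did the muscle myosin-binding gene Mybpc1 at 0.72. These 3 were picked after their values were seen.

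Among the genes lower in RE-RE, Dupd1, a dual-specificity phosphatase of muscle (chromosome 14, 21676537 to 21714576), led with a difference of -3.84 ± 0.16. It ranged from 1.95 to 5.39 log2 FPKM in RE-RE (median 3.74) and from 6.63 to 8.18 in Br-RE (median 7.63), with no overlap. Cilp, a matrix protein of cartilage and injured tissue, ranged from 1.23 to 6.37 (median 3.48) against 6.14 to 8.18 (median 6.81), with a difference of -3.46 ± 0.23 and 23 of 24 RE-RE libraries below every Br-RE library. Sln codes for sarcolipin, an inhibitor of the sarcoplasmic calcium pump (chromosome 9, 53850164 to 53854560). It ranged from 0.08 to 3.68 (median 2.03) against 2.57 to 7.12 (median 5.09) and differed by -3.31 ± 0.34. Cdkn1a, the cell-cycle inhibitor p21, ranged from 1.96 to 5.53 (median 3.12) against 5.38 to 7.08 (median 6.36) and differed by -2.94 ± 0.20. The range within RE-RE was wider than within Br-RE in Dupd1, Cilp and Cdkn1a, and narrower in Sln.

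Rrad, a small GTPase that inhibits calcium channels, ranged from -2.34 to 5.84 in RE-RE (median 0.22) and from 1.43 to 5.11 in Br-RE (median 3.14), with a difference of -3.14 ± 0.37. RE-RE replicate 22, taken at ZT 20, held the highest value, and the next highest was 1.60. The same mouse was the highest of RE-RE in Cdkn1a and in Lgals3, the macrophage and injury gene galectin-3, which differed by -2.28. Without it the differences were -3.38 for Rrad, -3.02 for Cdkn1a and -2.38 for Lgals3. Olfm1 (-2.90), Gstm7 (-2.19) and Zfp385a (-2.18) were lower with no overlap, and Cpne2 (-2.81) was lower as well. Mrln, which codes for myoregulin, a further small inhibitor of the calcium pump, ranged from 1.78 to 4.39 (median 2.87) against 4.71 to 6.27 (median 5.30), a difference of -2.38 ± 0.15.

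**Figure D3:**
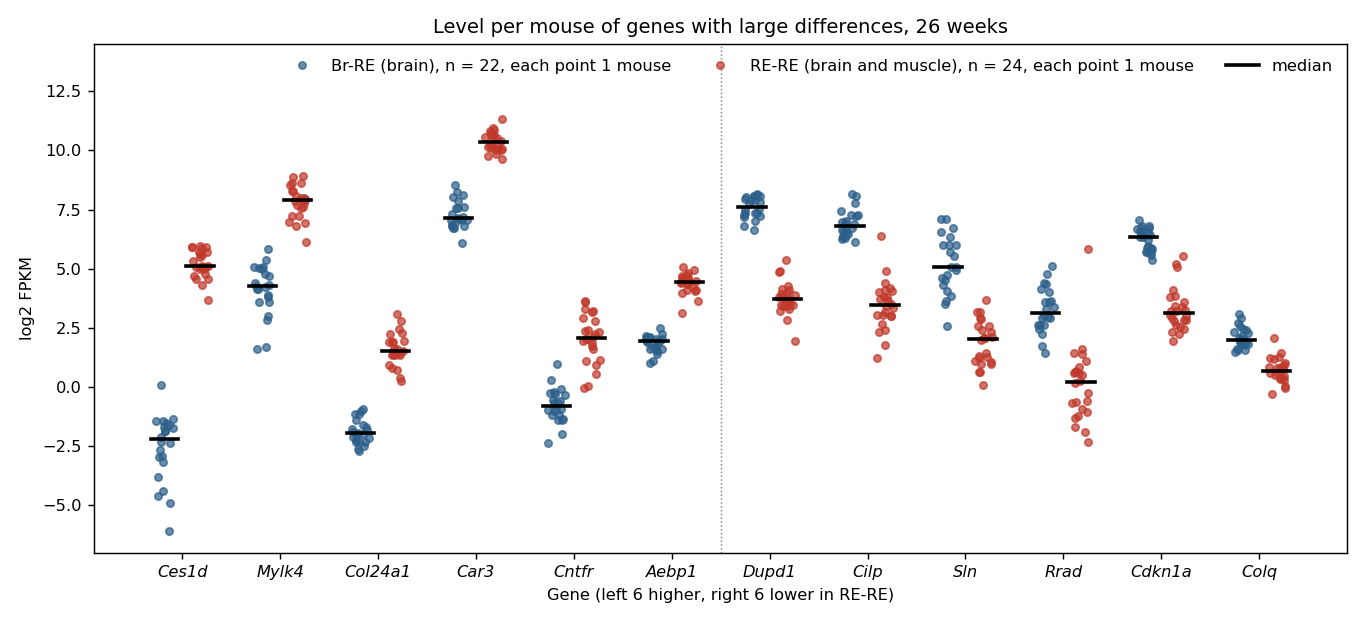
Log2 FPKM (y axis) of 12 genes (x axis, the left 6 higher and the right 6 lower in RE-RE) at 26 weeks; each point is a mouse and the bars mark the medians of the 24 RE-RE and 22 Br-RE mice. The 2 clouds of points are apart in Ces1d, Mylk4, Col24a1, Car3, Aebp1 and Dupd1, and touch or overlap in Cntfr, Cilp, Sln, Rrad, Cdkn1a and Colq.

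Genes of carbohydrate use were mostly higher where they differed. Of 20 genes of glucose uptake and glycolysis, 9 were higher (45%) and 3 lower (15%), with a median of 0.12, beside 16.5% higher and 18.9% lower over all genes. Tbc1d1, a regulator of glucose transporter traffic, ranged from 3.25 to 5.19 in RE-RE and from 2.04 to 3.40 in Br-RE and differed by 1.67 ± 0.11. Hk2, hexokinase, differed by 0.54, Pfkm, phosphofructokinase, by 0.49 and Ldha by 0.41, whereas Ldhb (-0.75), the lactate dehydrogenase subunit of oxidative tissue, and Pkm (-0.38) were lower. Of 14 genes of glycogen metabolism 6 were higher (42.9%) and 2 lower (14.3%), with a median of 0.12. Ppp1r3a, which targets a phosphatase to glycogen, was higher by 0.68, and Stbd1 by 0.67, while Ppp1r3c was lower, at -0.66. Of 10 genes of pyruvate oxidation 3 were higher (30%) and none lower, among them the pyruvate carrier Mpc1 (0.50) and the phosphatase Pdp1 (0.64). Mpc2, also called, lost its call in 31 of 46 fits with 1 mouse left out.

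Of 28 genes of fatty acid uptake and oxidation, 8 were lower (28.6%) and 4 higher (14.3%), with a median of -0.10, beside 18.9% lower and 16.5% higher over all genes. Fabp3, the fatty acid binding protein of oxidative muscle, was lower, at -0.98 ± 0.12, as were Hadhb (-0.69) and Acadm (-0.53), enzymes of beta-oxidation. Ucp3 was higher by 0.83. Of 16 genes of lipid storage and lipolysis, 6 were higher, Ces1d and the triglyceride-forming Dgat2 (0.76) among them, and 3 were lower, which were Plin5 (-1.03), Pnpla3 (-0.997) and Pnpla2 (-0.64), genes of the lipid droplet. The median was 0.12. Of 11 genes of lipid synthesis, 1 was higher and 1 lower, and of 18 genes of branched-chain amino acid breakdown, 2 were higher and 6 lower.

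The nuclear and mitochondrial genes of the respiratory chain differed in opposite directions. Of 32 nuclear genes of oxidative phosphorylation none was higher and 19 were lower (59.4%, beside 18.9% of all genes), with a median of -0.17 against -0.01 over all genes. The differences were small, from -0.38 for Cox5a to -0.03. Of 13 genes of the tricarboxylic acid cycle 6 were lower (46.2%) and none higher (median -0.13), and 3 were lower under quantile normalization. Of 10 genes of the mitochondrial genome 9 were higher (90%, beside 16.5% of all genes) and none lower. The median was 0.56, which fell to 0.24 with 7 calls under quantile normalization. mt-Co2 ranged from 10.45 to 12.85 log2 FPKM in RE-RE (median 11.52) and from 9.38 to 11.58 in Br-RE (median 10.30), a difference of 1.23 ± 0.19, and 12 of 24 RE-RE libraries lay above every Br-RE library. mt-Co1 differed by 0.61, and by 0.04 without a call under quantile normalization. The 10 genes summed to 132000 to 305000 FPKM in RE-RE (median 166000) and 79100 to 162000 in Br-RE (median 121000). FPKM is relative to the total of a library, and the part of this sum in the lower nuclear genes was not tested. Mitochondrial transcripts also have near copies in the nuclear genome.

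Of 20 calcium-handling genes 11 were lower (55.0%, beside 18.9% of all genes) and none higher, with a median of -0.20. Besides Sln and Mrln these were led by Casq2, the calcium store protein of slow fibres and heart, at -1.35 ± 0.11, and Cacng1, a subunit of the muscle calcium channel, at -0.78. Under quantile normalization 9 were lower and 1 higher. Of 9 slow fibre genes 3 were higher, namely the troponin genes Tnnc1 (1.26) and Tnnt1 (0.95) and the tropomyosin gene Tpm3 (0.52), and 3 were lower, namely Casq2, the myoglobin gene Mb (-0.87) and Myoz2 (-0.72). The median was -0.18, and without the 3 libraries that stand apart it was 0.05, with 4 higher and 3 lower. Of 14 fast fibre genes 1 was higher, the tropomyosin gene Tpm1 (0.24), and 3 were lower (21.4%, near the share over all genes), with a median of -0.14. Mylpf, the fast regulatory light chain, was at -0.49. Under quantile normalization Tpm1 was at -0.08, no fast fibre gene was higher and 4 were lower.

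Genes listed for denervation and the neuromuscular junction, or for mechanical stress and regeneration, were lower in RE-RE where they were called. Of 15 genes of denervation and the neuromuscular junction 7 were lower (46.7%) and none higher, with a median of -0.19, beside 18.9% lower and 16.5% higher over all genes. Chrnb1, a subunit of the acetylcholine receptor, ranged from 2.94 to 4.98 in RE-RE and from 5.001 to 5.82 in Br-RE, with no overlap and a difference of -1.19 ± 0.09. Colq, which anchors acetylcholinesterase at the junction, was lower, at -1.42 ± 0.14, as were the myogenic factors Myod1 (-1.18) and Myog (-1.06) and the stress gene Gadd45a (-0.89). Under quantile normalization 8 were lower and 1 higher. Of 11 genes of mechanical stress and regeneration 6 were lower (54.5%) and none higher (median -0.46). Mss51, a muscle gene linked to mitochondrial metabolism, ranged from -0.06 to 2.93 against 3.16 to 4.97 and differed by -2.15 ± 0.18, with no overlap. Mybph (-1.37), Ankrd2 (-1.24), Xirp1 (-1.08) and Ankrd1 (-0.81) were also lower. Without RE-RE replicate 22, Ankrd1 was at -0.89 and Myog at -1.22.

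Of 13 heat shock genes 9 were lower (69.2%) and none higher, with a median of -0.31, beside 18.9% lower and 16.5% higher over all genes. Among them were Hspb7 (-1.13 ± 0.14), Bag3 (-0.66) and Hsph1 (-0.50), which serve the folding and clearance of muscle proteins. Of 13 targets of p53 and genes of senescence 6 were lower (46.2%) and 2 higher (15.4%), with a median of -0.12. Cdkn1a, the ectodysplasin receptor gene Eda2r (-1.19) and Mdm2 (-0.46) were lower, and Gadd45b (0.74) was higher. Of 8 genes of the integrated stress response 3 were higher (37.5%), among them Chac1 (1.39) and Ddit3 (0.68), and 2 were lower (25%), among them Atf3 (-1.31). Of 19 antioxidant genes 2 were higher and 6 lower, with Nqo1 at -0.68. Of 17 glucocorticoid-responsive genes 5 were higher (29.4%) and none lower (median 0.05). The higher genes were Glul (1.09), Tsc22d3 (0.72), Per1, Sgk1 (0.40) and the receptor gene Nr3c1 (0.39). Of 21 genes of atrophy and autophagy 3 were higher (14.3%) and 6 lower (28.6%). Of 12 genes of the arrestin domain and nutrient list 3 were higher (25%) and 3 lower (25%), with Sesn3 at -1.32. Of 24 genes of the extracellular matrix 3 were higher and 5 lower, with Cilp and Loxl1 (-0.68) among the latter. The shares of the matrix list, 12.5% and 20.8%, were near those over all genes, 16.5% and 18.9%.

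Called markers of other cell types were found in the fibroblast, satellite cell, tendon and nerve lists. Of the immune markers, Cd3e and Cd79a were listed at 0 in 1 and 2 libraries. None of 6 macrophage and lymphoid markers or 12 endothelial and mural markers tested was called, and summed levels overlapped, with 16.7 to 45.3 FPKM in RE-RE against 15.6 to 49.8 in Br-RE for the former and 91.2 to 238 against 144 to 224 for the latter. Of 8 fibroblast markers 4 were higher (50%, beside 16.5% of all genes), namely Pi16 (0.42), Dcn (0.37), Mfap5 (0.36) and Dpt (0.34). All 9 listed fibroblast markers, Gsn and Col1a1 included, summed to 86.1 to 223 FPKM in RE-RE (median 144) and 79.6 to 228 in Br-RE (median 100). Mfap5 lost its call without the 3 libraries that stand apart (adjusted p = 0.0659), and Dcn and Mfap5 lost theirs in 26 and 17 of 46 fits with 1 mouse left out. These fibroblast genes were higher beside Col24a1 and Aebp1, and their part in those differences was not tested. Red blood cell markers, 5 in number, were not called, with sums of 92.3 to 417 and 64.6 to 555 FPKM. Of 4 tendon markers tested, the factor gene Scx was lower, at -0.71, and the other 3 were not called, with a list median of 0.21. The tendon markers summed to a median of 33.7 FPKM in RE-RE and 31.2 in Br-RE. Of 3 nerve and Schwann cell markers tested, Pmp22 was higher by 0.28. The 2 satellite cell markers tested, Sdc4 (-0.87) and Cdh15 (-0.32), were lower. Satellite cell markers summed to 8.28 to 25.3 FPKM in RE-RE and 18.1 to 31.2 in Br-RE. Sdc4 (median 7.53 against 14.4 FPKM) and Cdh15 (5.29 against 6.79) were the largest terms of this sum. Pax7, Myf5 and Vcam1 were below the filter, at medians of 0.286, 0.684 and 0.363 FPKM in RE-RE against 0.290, 0.796 and 0.358 in Br-RE. The part of satellite cells in the lower Myod1 and Myog was not tested.

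**Figure D4:**
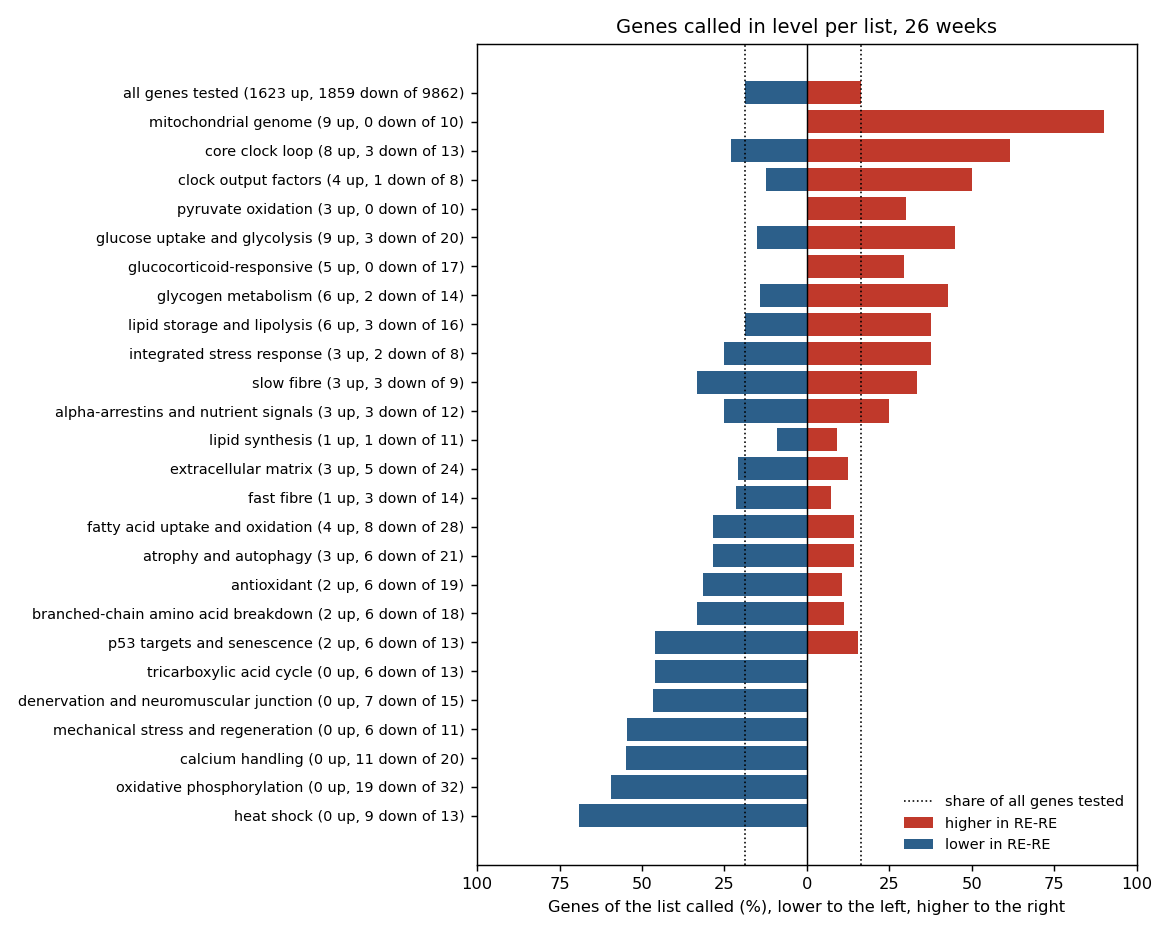
Percent of tested genes called higher (right) and lower (left) in RE-RE at 26 weeks (x axis) for each gene list (y axis, with the counts); the dotted lines mark the shares over all genes tested, 16.5% higher and 18.9% lower. The core clock loop and the mitochondrial genome extend to the right, and oxidative phosphorylation, calcium handling and heat shock to the left.

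Promoter motifs were counted in the 7425 of 9862 tested genes with a RefSeq window of 250 bases before to 50 after the start. The E-box letters were in 12.5% of all these genes, in 13.9% of those higher and in 12.0% of those lower in RE-RE. Among genes at least 2-fold higher they were in 12 of 58 (20.7%), and among those at least 2-fold lower in 11.4%. D-box letters were in 2.24% of all, 3.84% of the higher and 1.80% of the lower genes. They were in 6 of 58 genes at least 2-fold higher (10.3%) and in 1 of 70 at least 2-fold lower (1.43%). The REV-ERB and ROR element was in 2.29% of all, 2.17% of the higher and 2.7% of the lower genes. It was in 2 of 58 genes at least 2-fold higher (3.45%) and in 1 of 70 at least 2-fold lower (1.43%). In the core clock loop 3 of 10 genes with a window held an E-box, 2 a D-box and 1 a REV-ERB and ROR element. Of the output factors 3 of 8 held an E-box, 0 a D-box and 1 a REV-ERB and ROR element. Tef, for example, held an E-box at -138 in one window and at -127 in another with its own start, and Nfil3 a REV-ERB and ROR element at -12. Ak4 held a D-box at -235 in one window and an E-box at -214 in another, each position counted from that window's start. Genes higher by at least 2-fold had 1.48 annotated windows each on average against 1.28 over all genes, and each window is a further place for a match.

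The comparison of the same genotypes at 10 to 12 weeks shows which differences belong to both ages. At that age 1460 genes were higher (14.8%) and 1715 lower (17.4%) in RE-RE. Of the genes higher at 26 weeks 972 were also higher at 10 to 12 weeks (59.9% of the older list and 66.6% of the younger), and of those lower 1006 were lower at both ages (54.1% and 58.7%). Across genes the differences at the 2 ages correlated with a Pearson r of 0.81 and a Spearman rho of 0.68, as a description, since genes are not independent. A change of the level difference with age was called in 356 genes, of which 115 had a more positive difference at 26 weeks (1.17%) and 241 a more negative one (2.44%). Without RE-RE replicate 5 the first count was 70. A change of the rhythm difference with age was called in none (0%) by limma, with 1348 genes at an unadjusted p under 0.05.

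Genes whose difference appeared with age were mostly lower in RE-RE at 26 weeks: 130 of the 356 were lower at 26 weeks and not called at 10 to 12 weeks, and 51 were higher and not called before. Sln was the clearest. At 10 to 12 weeks it ranged from 0.92 to 3.69 log2 FPKM in RE-RE (median 1.80) and from 0.39 to 3.49 in Br-RE (median 1.70), so that the groups overlapped throughout, and its difference was 0.23 against -3.31 at 26 weeks. Tnfrsf23, a decoy receptor of the TRAIL family, had -0.00 against -1.55, Mdm2 0.08 against -0.46, Ankrd1 0.49 against -0.81 and Nqo1 -0.07 against -0.68. Rrad had -0.48 against -3.14. The mitochondrial genome had a median difference of 0.03 at 10 to 12 weeks against 0.56, with a change of the difference called in 8 of 10 genes. Under quantile normalization the changes of mt-Nd1, mt-Co1 and mt-Nd2 were not called, and that of mt-Co2 was (0.83). No change with age was called in the 13 core clock genes or the 8 output factors. Car3 was higher in RE-RE at both ages, by 4.55 and 3.10.

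**Figure D5:**
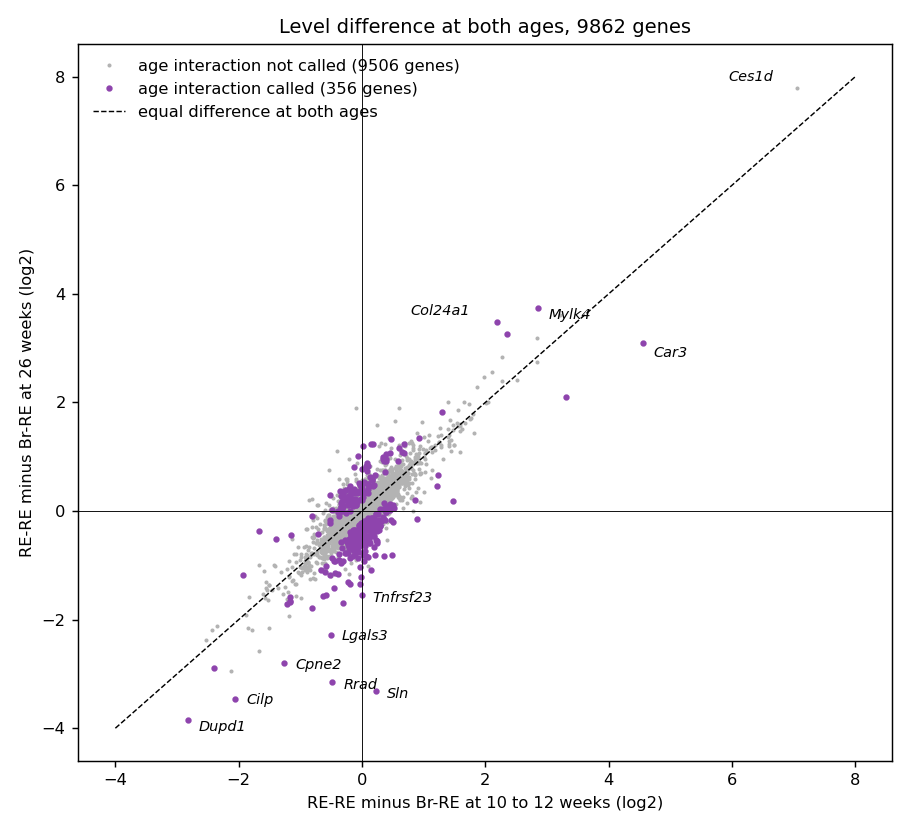
RE-RE minus Br-RE difference in 24 h mean level (log2) at 26 weeks (y axis) against the same at 10 to 12 weeks (x axis); each point is a gene, those with a called change with age are in colour, and the dashed line marks equal differences. Sln, at 0.23 and -3.31, lies farthest below the line, and Car3, at 4.55 and 3.10, lies below it among the higher genes.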

How the data were processed

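RNA of snap-frozen tibialis anterior muscle was sequenced, and the deposited table holds log2 FPKM of 14413 genes in 352 libraries. The submitters' processing notes name HISAT2 2.1.0, FastQC 0.11.8, featureCounts 1.6.2 and Trim Galore 0.5.0 on GRCm38, besides limma 3.44.1 and edgeR 3.30.0, with no order of use. The deposited log2 values reach down to that of 0.01 FPKM, which appears to have been added, and a centring by sex and set is visible in them (within 1e-05), with its method not given in the sources used here. Read depths were chosen so that low values, of genes without reads in some libraries, came out as whole reads. Of these low values at least 93.4% were whole in each library (within 0.1 reads), a share that the choice of depth itself raises.

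The values were used as deposited. Genes with a mean of at least 1 FPKM over all libraries (9862) entered limma 3.58.1 (R 4.3.3) with the trend and robust options: a mean, a cosine and a sine of 24 h per group and a term for sex, over the 46 libraries, per group for rhythms, and over 93 libraries for age. P-values were adjusted by Benjamini-Hochberg over all 9862 genes and called at 0.05, and they measure the spread between mice, which the labels give as biological replicates. The fit was tested on simulated data. Python 3.11.15, pandas 2.3.3, numpy 2.4.6, scipy 1.17.1 and matplotlib 3.10.9 served for tables and plots. Positions and lengths are from GENCODE on GRCm38.

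Named genes were all clock genes, the 12 highest and 12 lowest called differences, up to 4 called genes of each list by smallest p, the 12 smallest p for rhythm difference, 8 for each group's rhythm and 6 for each age interaction. Some genes that this rule names are not reported here. Named after their values were seen were Ankrd1, Myog, Myoz2, Gadd45b, Ldha, Pfkm, Pnpla2, Sgk1, Stbd1, Tnnt1, Aldh1a1, Maob, Mybpc1, Pdk4, Ucp3, Cpt1a, Lipe, Mid1ip1 and Wsb1. The groups compared, the gene lists and the markers were chosen with earlier results of these data known. Alternatives changed the filter, the added value, the scaling, the model terms and the libraries.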

Additional observations from a re-analysis of the deposited data

Results flagged for a closer look

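These genes had a difference between RE-RE and Br-RE that itself differed between 26 and 10 to 12 weeks (limma, test of the interaction, Benjamini-Hochberg adjusted p under 0.05). The values are the difference at 26 weeks minus the difference at 10 to 12 weeks, on the log2 scale.

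The difference was more negative at 26 weeks for Sln (-3.54), Rrad (-2.66), Lgals3 (-1.78), Tnfrsf23 (-1.55), Cpne2 (-1.55), Car3 (-1.45), Cilp (-1.40), Olfml2a (-1.31), Ankrd1 (-1.30), Tmem176b (-1.23), Sesn3 (-1.10) and Dupd1 (-1.02). Smaller changes of the same sign were found for Colq (-0.96), Fbxo30 (-0.67), Nqo1 (-0.61), Stbd1 (-0.56), Aebp2 (-0.55), Mdm2 (-0.54), Ypel2 (-0.51), Olfm1 (-0.50) and Acad8 (-0.22). Car3 and Stbd1 were higher in RE-RE at both ages and less so at 26 weeks. The change of Stbd1 lost its call in 4 of 46 fits with 1 mouse left out. Tmem176b, whose exons overlap Tmem176a, had 0.15 at 10 to 12 weeks and -1.08 at 26 weeks, Olfml2a -0.03 and -1.34, and Fbxo30, a muscle ubiquitin ligase gene, 0.20 and -0.47.

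The difference was more positive at 26 weeks for Col24a1 (1.30), mt-Co2 (1.09), Ifit3b (0.90), Mylk4 (0.89), mt-Nd1 (0.50), mt-Co1 (0.44) and mt-Nd2 (0.41). With 1 FPKM added the value of Col24a1 was 0.42 (adjusted p = 0.120). Under quantile normalization the calls of Ifit3b (0.63), mt-Nd1 (0.08), mt-Co1 (0.04) and mt-Nd2 (0.16) were lost, and those of Ifit3b and mt-Nd2 also without 1 of several single libraries.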

How the results depend on the processing

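The 1623 higher genes numbered 873 when genes needed a mean of 2 on the log2 scale (fewer genes tested) and 1551 to 1697 with single mice left out; the 1859 lower genes numbered 1749 to 2051. The 9 rhythm differences were 15 with all 26-week groups in the fit, 33 with array weights and 7 to 16 with single mice left out. The 75 rhythmic genes of RE-RE were 429 with array weights, 117 with the gene length slope as a covariate, 49 at a mean of at least 2 and 57 to 136 with single mice left out. The 68 of Br-RE were 161, 40 at a mean of at least 2, and 43 to 93. Changes of the level difference with age were more negative in 196 to 284 genes and more positive in 70 to 149, and changes of rhythm with age numbered 0 in each setting run. The causes of these shifts, other than fewer genes or mice, were not tested.

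Nothing in the labels pairs mice of the same replicate number. Over 22 same-numbered pairs the median correlation of deviations was -0.05 (range -0.46 to 0.26), and 4 RE-RE mice correlated best with their own number. With 3 or 4 mice per time point these values do not settle whether mice were paired. With a replicate block 1424 genes were higher, 1601 lower and 4 differed in rhythm. Of 181 level differences of named genes, 181 kept direction and call with 0.1 FPKM added, with the length covariate, under median centring, without sex and with ZT as 6 levels. Leaving out sex or centring medians could change little here. Each gene has the same mean in both sexes as deposited, and library medians ran only from 2.27 to 2.39. Under quantile normalization Cs, Dlst, Mfap5 and mt-Co1 lost their calls and Tpm1 reversed from 0.24 to -0.0829 (adjusted p = 0.343). With 1 mouse left out, Mpc2, Dcn and Mfap5 lost their calls in 31, 26 and 17 of 46 fits. Without the 3 libraries that stand apart 1712 genes were higher, 1973 lower, 11 differed in rhythm, and 85 and 55 were rhythmic. The 3 or 4 mice per time point and an interval of 4 h limit the rhythm tests.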
